A study of Mus musculus with 6 samples.

Results

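The 10 genes described here are known as markers of spiral ganglion neurons or as parts of their axons. They were followed in cochlear explants with and without the aminoglycoside neomycin, a toxin of hair cells (HCs). They were chosen by symbol, as 10 of the 24421 gene symbols in the count table: the neurofilament genes Nefl, Nefm and Nefh, the related filament gene Prph, the neuronal tubulin gene Tubb3, the transcription factor genes Pou4f1 and Neurod1, the catecholamine enzyme gene Th, the ubiquitin hydrolase gene Uchl1 and the growth cone gene Gap43. RNA was sequenced from cochleae of neonatal wild-type mice at postnatal day 2, labelled only "WT" with no strain named, in 3 control and 3 neomycin samples. In the neomycin group the cochleae spent 12 h in culture, 6 h in 1 mM neomycin and then 5 days in medium with 10 μM EdU, a label of DNA synthesis. Each sample was a pool of 6 to 8 cochleae. The labels attach the same neomycin protocol to all 6 samples, so the control group was taken from the treatment label alone, and nothing says whether the pools came from separate cultures. P-values therefore measure the spread between these samples. According to the culture methods, the modiolus, the bony core that houses the spiral ganglion, was removed before culture. Which cells the transcripts of the 10 genes came from was not tested.

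Spiral ganglion neurons carry sound signals from HCs to the brain. Type I neurons contact inner HCs and make up most of the ganglion, while the few type II neurons contact outer HCs. Neurofilaments are assembled from light (Nefl), medium (Nefm) and heavy (Nefh) subunits and set the calibre of axons, and their proteins are released when axons are damaged. Peripherin (Prph) and tyrosine hydroxylase (Th) are known as markers of type II neurons. Whether they mark only those neurons in explants of this age was not tested.

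The 4 filament genes belong to 1 family, so reads of a member could be taken for another only where the letters are alike. No run of 50 bases of the Nefl, Nefm, Nefh or Prph transcript occurred in the transcript of another gene on the sense strand, nor did any of Tubb3, Th, Uchl1 or Gap43. For Pou4f1, 0.523% of such runs also occurred in Pou4f2, and for Neurod1 5.71% also occurred in Cerkl, a gene on the same strand with which it shares 201 exon bases.

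Total counts per library lay between 50471116 and 66068108. Levels are given as CPM, read counts relative to the TMM-adjusted size of the library. The groups were compared by the quasi-likelihood test of edgeR over the 15988 genes that passed its filter on low counts. A gene was called at a Benjamini-Hochberg adjusted p under 0.05 over all genes tested together with a fold change over 1.5. Of the 10 genes, 9 had enough counts to be tested.

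After neomycin, the transcripts of the 3 neurofilament subunits were lower by 1.85-fold to 2.32-fold. Uchl1 was 1.19-fold higher, below the fold change threshold. No other gene of the 10 passed the test. In numbers, 3 of the 9 genes tested were called lower, where 6.6% of all genes tested were. With the adjusted p alone, 3 were lower, against 16.1% of all genes, and 1 was higher, against 12.9%. The median log2 fold change of the 9 genes was -0.35, and that of all genes tested was -0.00. In bulk samples such as these, fewer cells of a type and less RNA per cell cannot be told apart.

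Nefl, the light subunit that other subunits need to assemble, lies at chr14:68083863-68089095 on the plus strand. Its level was 55.4, 34.7 and 31.5 CPM in control replicates 1, 2 and 3, and 20.2, 15.2 and 19.7 CPM in neomycin replicates 1, 2 and 3. Every neomycin library lay below every control library, and control replicate 1 stood well above the other controls. The mean fell from 40.5 ± 13.0 to 18.4 ± 2.75 CPM (SD, n = 3 each), a log2 fold change of -1.15 with a standard error of 0.18 and a 95% interval from -1.54 to -0.75 (adjusted p = 0.000919, edgeR quasi-likelihood test). The call was kept without any 1 of the 6 libraries, at log2 fold changes between -1.29 and -0.84, the smallest of them without control replicate 1.

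Nefm, the medium subunit, lies beside Nefl at chr14:68082590-68124846 on the minus strand. Control replicates 1, 2 and 3 held 54.7, 34.9 and 33.2 CPM of Nefm, and the neomycin replicates 24.3, 17.3 and 25.0 CPM. As for Nefl, the groups did not overlap and control replicate 1 was highest. The mean fell from 40.9 ± 12.0 to 22.2 ± 4.24 CPM (SD, n = 3 each), with a log2 fold change of -0.89, a standard error of 0.18 and a 95% interval from -1.28 to -0.49 (adjusted p = 0.00387, edgeR). Without control replicate 1 the log2 fold change was -0.61. In the annotation a long Nefm model and Nefl share 1108 exon bases on opposite strands, and since the strand setting of the counting is not stated, reads of the pair could have been mixed or dropped there.

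Nefh, the heavy subunit of mature, large axons, lies at chr11:4938754-4948064 on the minus strand. It was the scarcest of the 3 subunits, at 14.1, 7.40 and 4.47 CPM in the control replicates and 4.05, 4.61 and 2.59 CPM in the neomycin replicates. Control replicate 3 lay below neomycin replicate 2, so the groups overlapped, and the control libraries spread over a wide range. The mean fell from 8.67 ± 4.96 to 3.75 ± 1.04 CPM (SD, n = 3 each), a log2 fold change of -1.21 with a standard error of 0.34 and a 95% interval from -1.94 to -0.48 (adjusted p = 0.0187, edgeR). This call was lost without control replicate 1, where the log2 fold change was -0.65 (adjusted p = 0.0852), without neomycin replicate 3 (adjusted p = 0.0630) and with DESeq2 (adjusted p = 0.0678).

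Prph encodes peripherin, a filament protein of peripheral neurons, and lies at chr15:99055174-99058978 on the plus strand. Its level was 14.1, 10.8 and 6.51 CPM in the control replicates and 7.02, 10.1 and 7.56 CPM in the neomycin replicates. The groups overlapped, and the lowest value of all belonged to a control library. The log2 fold change was -0.35 with a 95% interval from -0.85 to 0.15 (adjusted p = 0.272, edgeR), an interval that reaches from a fall nearly as large as that of Nefm to a small rise. Without control replicate 3 the log2 fold change was -0.59 and the gene passed (edgeR, adjusted p = 0.0230).

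**Figure D1:**
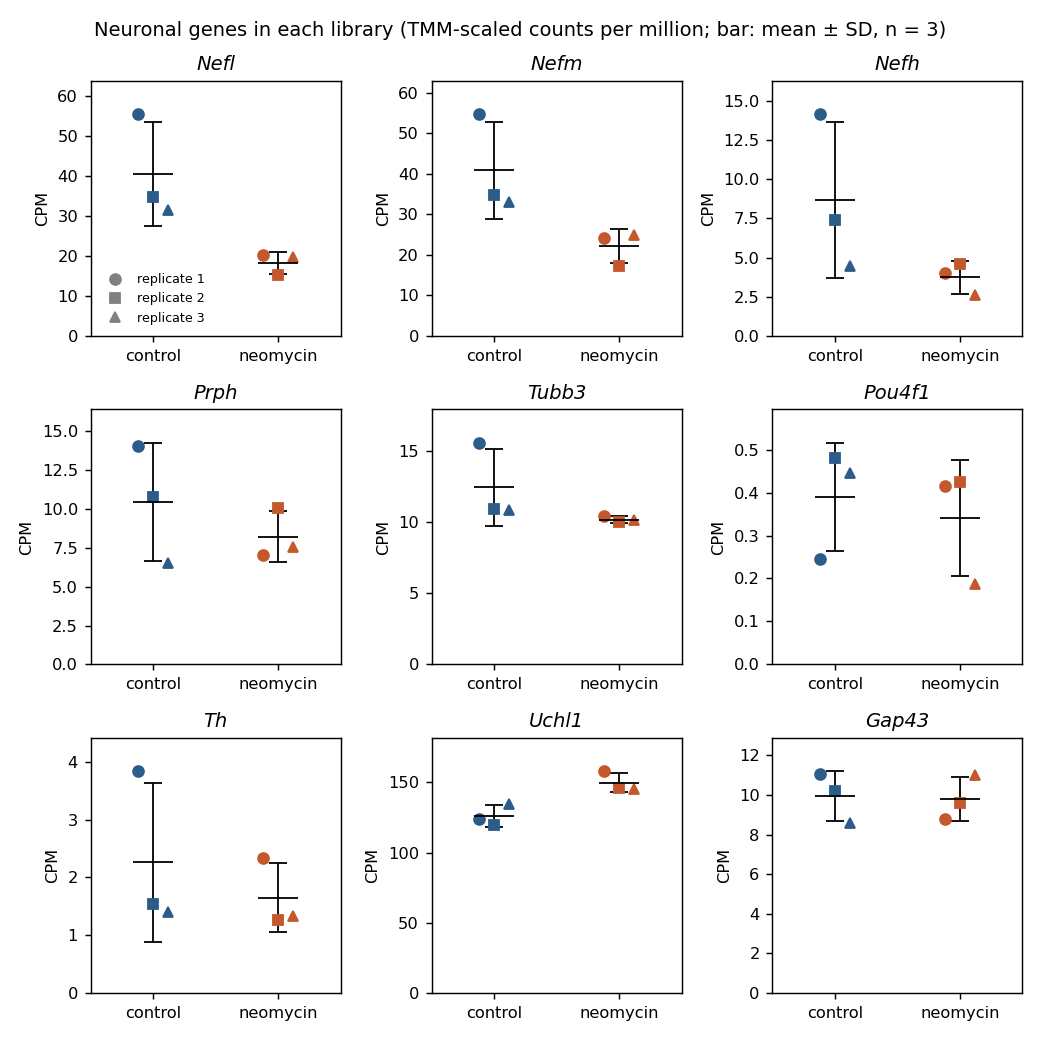
Level of each of the 9 genes tested in each library, in TMM-scaled CPM on a linear axis from 0, with control libraries in blue, neomycin libraries in orange, symbols for the replicate number, and the mean ± SD of the 3 libraries of a group. The groups do not overlap for Nefl, Nefm, Tubb3 and Uchl1, and control replicate 1 is the highest library for 7 of the 9 genes.

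Because ratios within a library do not depend on its scaling, the filament genes were also compared with each other. These ratios of counts can still carry a library's trend on gene length, which was not removed from them. With that trend removed in edgeR, the log2 fold change went from -0.35 to -0.55 for Prph. It went from -1.15 to -1.20 for Nefl and from -0.89 to -0.81 for Nefm. The correction used all annotated exons merged, 3.38 kb for Nefl and 5.782 kb for Nefm. The Nefm transcript with the longest coding sequence is 3.334 kb, close to Nefl, so the shift of Nefm depends on the length chosen. The correction was not run with that shorter length. The Nefm to Nefl ratio of counts was 0.987, 1.01 and 1.05 in the control replicates and 1.20, 1.14 and 1.27 in the neomycin replicates. The groups did not overlap, so Nefl counts were lower relative to Nefm in each neomycin library, by 0.25 on the log2 scale on average (exact two-sided permutation test, p = 0.1, the smallest p that 3 against 3 libraries allow). Reads from the 1108 exon bases that the pair share may have been mixed or dropped, which would affect this ratio. The Prph to Nefl ratio was 0.254, 0.311 and 0.206 in the control replicates and 0.347, 0.662 and 0.384 in the neomycin replicates. These groups did not overlap either, with a difference of 0.81 on the log2 scale (exact permutation test, p = 0.1). For Nefh to Nefl the ratio was 0.255, 0.213 and 0.142 against 0.200, 0.303 and 0.132, and the log2 difference was 0.02 (exact permutation test, p = 1.0). That difference turned negative, to -0.22, without control replicate 3 and, to -0.28, without neomycin replicate 2.

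**Figure D2:**
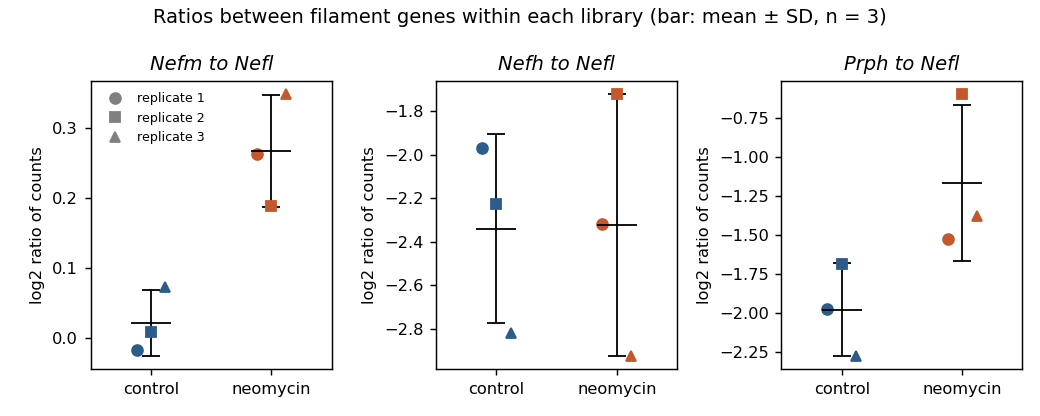
Log2 ratios of the counts of Nefm, Nefh and Prph to those of Nefl in each library, with control in blue, neomycin in orange and the mean ± SD of 3 libraries per group. The Nefm and Prph ratios are higher in every neomycin library than in every control library, by 0.25 and 0.81 on average, while the Nefh ratios overlap.

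Tubb3, the β-tubulin gene most used to stain neurons, lies at chr8:123411424-123422015 on the plus strand. It stood at 15.6, 10.9 and 10.8 CPM in the control replicates and at 10.4, 9.97 and 10.2 CPM in the neomycin replicates. The groups did not overlap, but control replicates 2 and 3 lay only just above the neomycin libraries. The log2 fold change was -0.29 with a 95% interval from -0.60 to 0.02 and did not pass the test (adjusted p = 0.143, edgeR). It passed when the trend of each library on gene length was removed, with a value of -0.50 (edgeR, adjusted p = 0.0330). Among the 9 genes tested, the groups did not overlap for 4, namely Nefl, Nefm, Tubb3 and Uchl1, against 43.5% of all genes tested.

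Pou4f1 encodes BRN3A, a transcription factor that spiral ganglion neurons keep into maturity, and lies at chr14:104461676-104467999 on the minus strand. It was rare, with 17, 25 and 25 counts in the control replicates and 22, 25 and 10 counts in the neomycin replicates. The groups overlapped, and control replicate 1 and neomycin replicate 3 were the lowest libraries. The log2 fold change was -0.18 with a wide 95% interval from -1.25 to 0.90 (adjusted p = 0.819, edgeR), and it was 0.12 without neomycin replicate 3, so no difference was detectable at this depth. Neurod1, a transcription factor of neuroblasts that is turned down as neurons mature, lies at chr2:79452521-79456751 on the minus strand. It had 1, 1 and 0 counts in the control replicates and 0, 0 and 1 in the neomycin replicates. All 6 libraries were thus at or under the floor of 3 counts, and Neurod1 was not tested. Reads from the bases shared with Cerkl could have been counted for either gene or dropped.

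Th encodes the first enzyme of dopamine synthesis and lies at chr7:142892752-142931128 on the minus strand. Its level was 3.84, 1.53 and 1.41 CPM in the control replicates and 2.33, 1.27 and 1.34 CPM in the neomycin replicates. In both groups replicate 1 stood above the other libraries, and the groups overlapped. The log2 fold change of -0.47 had a 95% interval from -1.31 to 0.37 (adjusted p = 0.390, edgeR) and was 0.17 without control replicate 1. Of 10 other catecholamine and sympathetic genes, 3 had 0 counts in all 6 libraries, among them Dbh, which makes noradrenaline, and a count of 0 allows up to 3 counts in each library. The other 7 had counts, among them Ddc, the next enzyme of dopamine synthesis, at 2.41 to 2.96 CPM over the libraries, and Slc6a2, the noradrenaline transporter, at 0 to 13 counts. Of these genes 4 were tested and 0 passed in edgeR (0 at an unadjusted p under 0.05, and 0 with DESeq2), with Slc18a2, the vesicle transporter of monoamines, at 5.02 ± 0.750 and 5.82 ± 0.570 CPM, and Gch1, which makes the cofactor of TH, at 5.03 ± 0.689 and 3.97 ± 0.839 CPM in control and neomycin (SD, n = 3 each).

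Prph and Th, the pair known from type II neurons, are shown with their promoters side by side. The 300 bases run from 250 before to 50 after the transcription start in RefSeq (GRCm38.p6), at chr15:99054924-99055223 on the plus strand for Prph and chr7:142899946-142900245 on the minus strand for Th. Capitals mark a TATA box in Prph and a cyclic AMP response element in Th.
Prph: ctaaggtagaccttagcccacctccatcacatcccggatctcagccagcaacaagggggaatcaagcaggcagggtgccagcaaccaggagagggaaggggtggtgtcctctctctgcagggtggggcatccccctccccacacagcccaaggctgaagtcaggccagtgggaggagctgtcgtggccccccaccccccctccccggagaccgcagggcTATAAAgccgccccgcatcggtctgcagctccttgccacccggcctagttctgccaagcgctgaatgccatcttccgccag
Th: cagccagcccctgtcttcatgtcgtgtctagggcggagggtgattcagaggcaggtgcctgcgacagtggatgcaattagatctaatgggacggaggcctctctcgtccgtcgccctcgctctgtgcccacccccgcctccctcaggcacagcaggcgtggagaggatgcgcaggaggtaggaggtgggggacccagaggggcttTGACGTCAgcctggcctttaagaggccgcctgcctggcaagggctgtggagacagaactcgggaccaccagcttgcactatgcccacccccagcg
The letters TATAAA of the TATA box began 31 bases before the start of Prph, and TGACGTCA of the cyclic AMP response element 45 bases before the start of Th. On either strand, 13.6% of 32851 mouse promoters of this length held the first and 1.79% the second. The E-box CAGCTG, held by 16.3% of promoters, was in neither of them and began 118 bases before the start of Pou4f1. Promoters were at hand for 6 of the 10 genes, and those of Uchl1, Tubb3 and Neurod1 held none of these 3 runs of letters. Only exact matches were searched, so variants of a motif were not counted. Those of Nefl, Nefm, Nefh and Gap43 were not analysed here. A match of letters is a description and was not tested as a site of binding.

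Uchl1 encodes PGP9.5, a ubiquitin hydrolase abundant in neurons, and lies at chr5:66676091-66687234 on the plus strand. It was by far the most abundant of the 10 transcripts, at 124, 119 and 135 CPM in the control replicates and 158, 146 and 145 CPM in the neomycin replicates. Every neomycin library lay above every control library, and the spread within each group was small. The mean rose from 126 ± 7.75 to 150 ± 6.98 CPM (SD, n = 3 each), with a log2 fold change of 0.25, a standard error of 0.07 and a 95% interval from 0.09 to 0.41 (adjusted p = 0.0248, edgeR). Whether Uchl1 passed the test depended on the processing and on single libraries: the log2 fold change was 0.02 after the gene length correction (adjusted p = 0.868), 0.18 with total counts as the only scaling (adjusted p = 0.0784), and its adjusted p lay between 0.0508 and 0.107 when control replicate 1 or 2 or any neomycin replicate was left out. The antisense gene Uchl1os shares 295 exon bases with Uchl1, and without a stated strand setting their reads cannot be told apart there. Among the 4 other genes of the ubiquitin hydrolase family, Uchl3 rose from 24.5 ± 0.640 to 30.3 ± 2.86 CPM (log2 fold change 0.31, adjusted p = 0.0222, edgeR), and did not pass without control replicate 2, neomycin replicate 2 or neomycin replicate 3 (adjusted p of 0.0530, 0.0923 and 0.101), and none of the others passed.

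Gap43, a membrane protein of growth cones, lies at chr16:42248442-42340651 on the minus strand. Its level was 11.1, 10.2 and 8.59 CPM in the control replicates and 8.79, 9.61 and 11.0 CPM in the neomycin replicates. The groups covered almost the same range. The log2 fold change was -0.02 with a 95% interval from -0.31 to 0.27 (adjusted p = 0.917, edgeR), which leaves out a fall of the size measured for any of the neurofilament genes. The log2 fold change was 0.069 without control replicate 1 and 0.049 without neomycin replicate 1. After the gene length correction it was -0.28 (adjusted p = 0.158, edgeR), so the value depended on the processing.

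**Figure D3:**
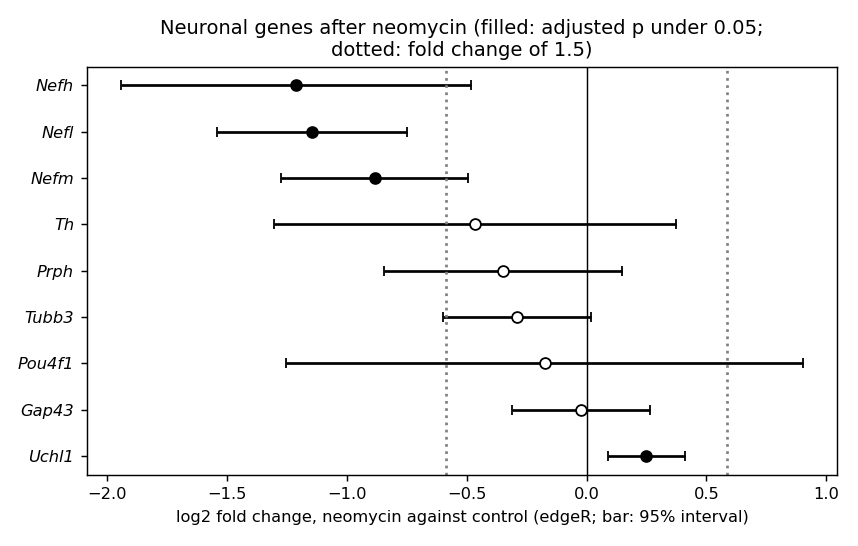
Log2 fold change of neomycin against control from edgeR for the 9 genes tested, with 95% intervals; filled points have an adjusted p under 0.05 and dotted lines mark a fold change of 1.5 either way. Nefh, Nefl and Nefm lie at -1.21, -1.15 and -0.89, and Uchl1 alone among the filled points lies above 0, at 0.25.

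Levels per kilobase used the length of the transcript with the longest coding sequence. For Nefm this was 3.334 kb, whereas all its annotated exons merged span 5.782 kb, a length that would lower its level and place. Per kilobase of transcript, the control means ran from Uchl1 at 107 CPM per kb to Nefm at 12.3, Nefl at 12.0, Gap43 at 7.01, Tubb3 at 6.65, Prph at 5.61, Nefh at 2.17, Th at 1.24, Pou4f1 at 0.0878 and Neurod1 at 0.00411. The ranges over the 3 control libraries were apart between Uchl1 and Nefm, between Nefl and Gap43, and between Th and Pou4f1, and overlapped for the other neighbours down to Pou4f1. After neomycin the order changed to Uchl1 at 127 CPM per kb, Gap43 at 6.90, Nefm at 6.66, Tubb3 at 5.45, Nefl at 5.43, Prph at 4.41, Nefh at 0.939 and Th at 0.901. Here only Uchl1 and Gap43, and Prph and Nefh, had ranges that did not overlap. In level per kilobase, Nefl and Nefm exceeded Gap43 in every control library, whereas after neomycin Nefl lay below the range of Gap43 and Nefm overlapped it. For Nefm this depends on the transcript length chosen. For Nefl the gap after neomycin was small, with a highest value of 5.98 CPM per kb against a lowest of 6.19 for Gap43. The trend of each library on gene length was not removed from these levels. Its removal in edgeR moved the log2 fold change of Gap43 from -0.02 to -0.28 and that of Nefl from -1.15 to -1.20.

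Control replicate 1 was the highest of the 6 libraries for 7 of the 9 genes tested, or 77.8%, against 22.6% of all genes tested, a pattern noticed after the values were seen. Its level over the mean of control replicates 2 and 3 was 1.67 for Nefl, 1.61 for Nefm, 2.38 for Nefh, 1.63 for Prph, 1.43 for Tubb3 and 2.61 for Th. The exceptions were Uchl1 at 0.978 and Pou4f1 at 0.533, and Gap43 was only slightly above, at 1.18. The median coefficient of variation of the 9 genes was 32.0% in control and 19.1% after neomycin, against 9.19% and 8.12% over all genes tested. Without control replicate 1, Nefl and Nefm remained the genes with an adjusted p under 0.05, 2 in place of 4, and the median log2 fold change of the 9 genes was -0.09. Depth also set this library apart, since it had the highest total count, 66068108, and its part in the result was not tested.

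**Figure D4:**
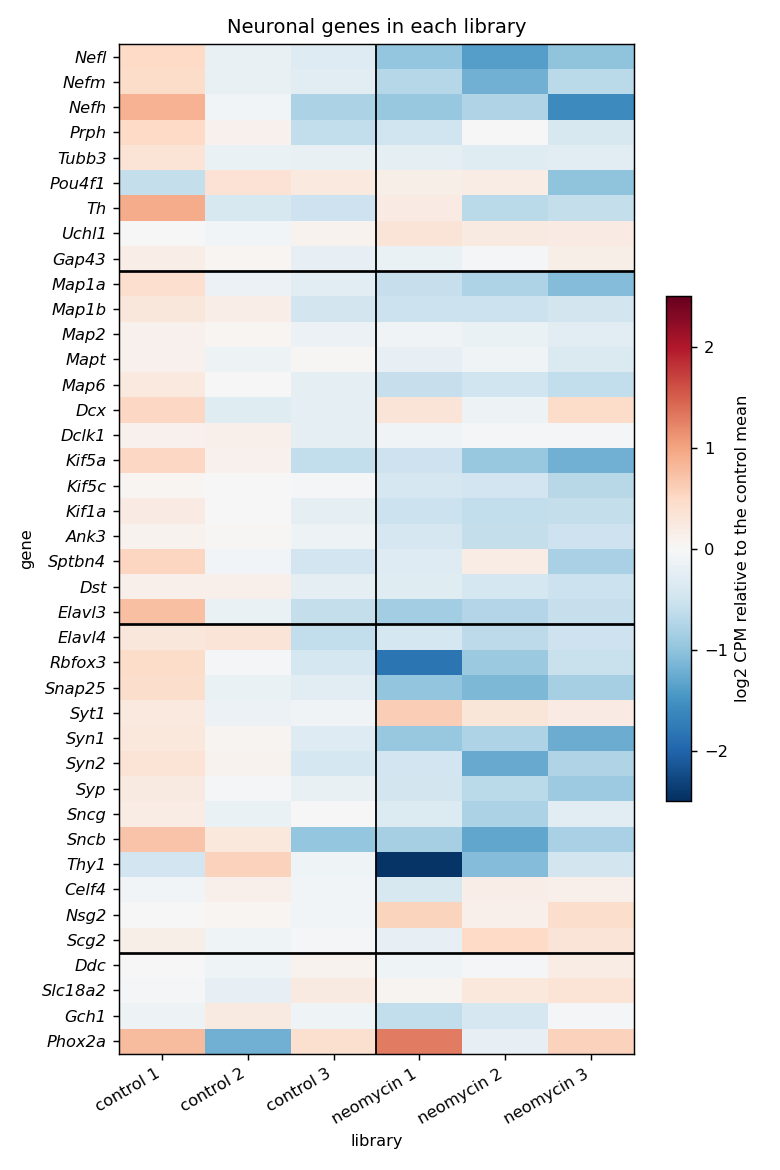
Log2 CPM of each tested gene relative to its control mean, by library (columns), with the 9 genes described here at the top, then axonal microtubule and transport genes, other neuron genes and catecholamine and sympathetic genes. The line between the axonal and the other neuron genes is drawn below Elavl3, which belongs to the other neuron genes. Control replicate 1 is the highest library for 7 of 9, 11 of 13, 8 of 14 and 0 of 4 genes of these lists.

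Most other genes of neurons fell or did not pass. Of 14 other neuron genes, all tested, 6 fell, 1 rose and 7 did not pass, with a median log2 fold change of -0.76. Among all genes tested, 16.1% fell and 12.9% rose at an adjusted p under 0.05. Snap25, a synaptic vesicle fusion protein, fell from 10.7 ± 3.05 to 5.33 ± 0.539 CPM (log2 fold change -1.01, adjusted p = 0.00206, edgeR). Syt1, the calcium sensor of vesicle release, rose from 55.5 ± 8.35 to 71.9 ± 11.4 CPM (log2 fold change 0.37, adjusted p = 0.0346, edgeR), with overlapping groups, and did not pass without control replicate 2 or 3 or neomycin replicate 1 or 2 (adjusted p of 0.140, 0.0754, 0.124 and 0.0677). With total counts as the only scaling, Syt1 did not pass either (adjusted p = 0.110, edgeR). The log2 fold change of Sncb, β-synuclein, was -1.12 (adjusted p = 0.0473, edgeR), and it lost its call without any 1 library other than control replicate 3. The number of these genes that passed was 4 without control replicate 2 and 3 without neomycin replicate 2. Their summed level was 226 to 276 CPM in control and 234 to 279 CPM after neomycin, where Syt1 and Scg2, a secretory granule protein, made up most of the sum.

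Axonal microtubule and transport genes were lower or did not pass: 8 of 13 fell, none rose, and the median log2 fold change was -0.51. Over all genes tested, 16.1% fell and 12.9% rose by the same test. Map1a, a microtubule-associated protein of axons and dendrites, fell from 10.7 ± 2.92 to 6.04 ± 1.07 CPM (log2 fold change -0.83, adjusted p = 0.00710, edgeR). Kif5a, a motor that carries neurofilaments along axons, fell from 10.2 ± 3.78 to 5.39 ± 1.32 CPM (log2 fold change -0.93, adjusted p = 0.0152, edgeR), with overlapping groups and a call lost without control replicate 1 or 2 or neomycin replicate 2 or 3 (adjusted p of 0.0599, 0.0560, 0.0646 and 0.0536). After the gene length correction 4 genes passed and the median was -0.18. Without control replicate 1 the number that also passed the fold change threshold went from 3 to 0. The count that passed was 4 without control replicate 2 and 5 without neomycin replicate 2.

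Of 11 other intermediate filament genes, 2 fell and 2 rose, beside 16.1% and 12.9% of all genes tested. Ina, α-internexin, the filament subunit that joins neurofilaments in many neurons, fell from 2.45 ± 1.16 to 1.02 ± 0.297 CPM (log2 fold change -1.27, adjusted p = 0.0214, edgeR), and its call was lost without control replicate 1 or 2 or neomycin replicate 2 or 3 (adjusted p of 0.125, 0.0598, 0.0923 and 0.0546). For Synm, synemin, the log2 fold change was -0.51 (adjusted p = 0.0102, edgeR; 0.0525 without control replicate 2). The rises were in Des, the muscle filament desmin (0.49, adjusted p = 0.00221), and Krt19, an epithelial keratin (0.47, adjusted p = 0.00342), neither of which is a neuronal filament. Of the 10 tubulin genes tested beside Tubb3, 4 fell and none rose, at a median of -0.09. Tubb2b, a tubulin of developing neurons, fell by 0.43 on the log2 scale (adjusted p = 0.00712, edgeR), and Tubb6 by 0.32 (adjusted p = 0.0369, edgeR). The number of tubulins that passed was 1 without control replicate 2, control replicate 3, neomycin replicate 1 or neomycin replicate 2, in turn, and Tubb6 did not pass in any of these (adjusted p of 0.139, 0.0652, 0.109 and 0.152). It was 7 after the gene length correction, at a median of -0.28, and 2 with upper quartile scaling.

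Genes known as markers of spiral ganglion subtypes were split, with 3 of 11 lower, 2 higher and a median of 0.01. The shares over all genes tested were 16.1% lower and 12.9% higher. Isl1, Ntrk2 and Etv4 had means of 144, 72.2 and 27.4 CPM over the 6 libraries, far above Pou4f1 at 0.366 CPM. Which cells these transcripts came from was not tested, so their changes cannot be assigned to neurons. Calb2, calretinin, fell from 79.9 ± 11.9 to 44.8 ± 2.49 CPM (log2 fold change -0.84, adjusted p = 0.000140, edgeR), and is known in HCs as well as in neurons. Etv4 fell from 34.7 ± 2.42 to 20.0 ± 4.33 CPM (-0.79, adjusted p = 0.00107, edgeR). Ntrk2, the receptor for BDNF, rose from 62.4 ± 7.14 to 82.0 ± 3.45 CPM (0.39, adjusted p = 0.00545, edgeR). Isl1, a transcription factor of sensory neurons, rose by 0.27 on the log2 scale (adjusted p = 0.0302, edgeR), and with 1 library left out it passed only without control replicate 3 or neomycin replicate 3. Of 12 neurogenic transcription factors 7 were tested and 2 fell, with 0 higher. Nhlh1, also known in young HCs, fell from 4.12 ± 0.584 to 1.25 ± 0.0587 CPM (-1.72, adjusted p = 0.000166, edgeR), the other was Myt1 with an adjusted p of 0.0446, and the count was 1 without any 1 library other than control replicate 3. Neurog1, the factor that starts neurogenesis in the ear, had 0 counts in every library.

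Of 17 axon growth genes beside Gap43, 5 fell and 4 rose, at a median of -0.03, where 16.1% of all genes tested fell and 12.9% rose. Cntn2, an axonal adhesion molecule, fell from 2.89 ± 0.927 to 0.647 ± 0.117 CPM (log2 fold change -2.15, adjusted p = 0.000451, edgeR). Crmp1, a growth cone protein, fell from 6.58 ± 1.97 to 3.54 ± 0.23 CPM (-0.90, adjusted p = 0.00635, edgeR). Sprr1a, known from injured sensory neurons and from epithelia, rose from a mean of 5.6 with an SD of 1.08 to 10.9 ± 3.28 CPM (n = 3 each; log2 fold change 0.96, adjusted p = 0.00615, edgeR), and Marcks, a membrane protein of growth cones and of many other cells, from 219 ± 7.19 to 292 ± 8.89 CPM (0.42, adjusted p = 0.00150, edgeR).

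**Figure D5:**
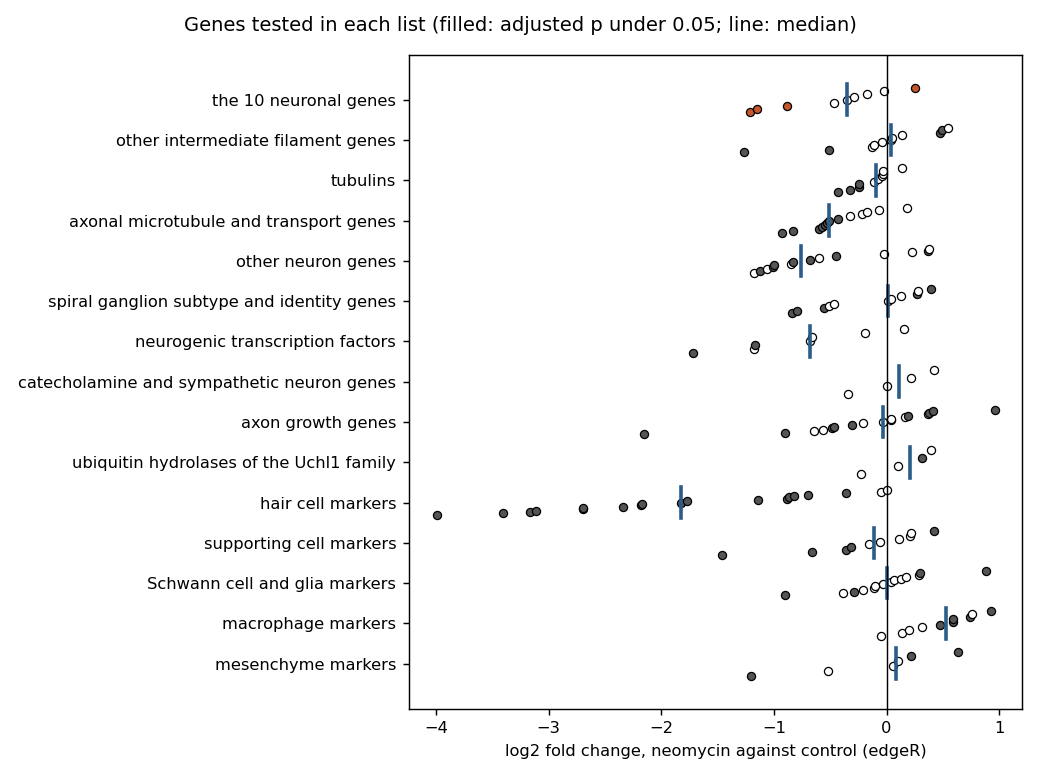
Log2 fold change of neomycin against control from edgeR for every tested gene of each list, filled where the adjusted p is under 0.05, with the median of each list as a blue line. The HC markers lie furthest left, with a median of -1.82, and the 9 neuronal genes tested have a median of -0.35.

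Markers of the other cell types in the explants moved as follows, where 16.1% of all genes tested were lower and 12.9% higher. Of 19 HC markers 17 fell and 0 rose, with a median of -1.82, a summed level of 985 to 1139 CPM in control and 341 to 407 CPM after neomycin, and none at 0. Slc26a5, the motor protein of outer HCs, fell from 25.8 ± 2.33 to 1.61 ± 0.280 CPM (log2 fold change -3.99, adjusted p = 9.4e-09, edgeR), and Ocm, the calcium buffer of outer HCs, from 303 ± 72.6 to 28.6 ± 2.94 CPM (-3.41, adjusted p = 5.13e-08, edgeR). Control replicate 1 was the highest library for 6 of the 19 HC markers. Schwann cells and glia, which wrap the neurons, showed 2 of 14 markers lower, 2 higher and a median of 0.01, with a summed level of 875 to 929 CPM in control and 880 to 933 CPM after neomycin. Macrophage markers were higher for 5 of 10, with summed levels of 83.8 to 106 and 116 to 147 CPM. Supporting cell markers had 4 of 10 lower and 1 higher (1308 to 1361 and 1305 to 1455 CPM), and mesenchyme markers 1 of 6 lower and 2 higher (4343 to 4910 and 5168 to 5421 CPM). No marker of these lists was at 0 in all libraries. The part of these cells in the neurofilament result was not tested.

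The genes whose pattern over the 6 libraries was most like that of the neurofilaments, by the root mean square difference of log2 CPM relative to the control mean over 14036 genes with at least 1 CPM, were not other neurofilaments. They were Ssh1 (0.0998), Mid1 (0.115) and Slc9a7 (0.121) for Nefl, Tmem252 (0.105), Ssh1 (0.120) and Slitrk4 (0.125) for Nefm, and Inhba (0.211), Prdm10 (0.252) and Mapk8ip2 (0.257) for Nefh. The smaller the number, the closer the pattern, and Nefh had no gene as close as those of Nefl and Nefm.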

How the data were processed

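RNA was sequenced from 3 control and 3 neomycin pools of mouse cochlear explants. The authors processed reads with Casava 1.8, trimmed them with trimmomatic 0.23, aligned them to mm10 with Hisat2 and counted them per gene symbol with HTSeq. The deposited values are counts, whole numbers without normalization. The strand setting, the treatment of multiply matching reads and the annotation date are not given in the sources used here, so overlapping or near-identical genes may have lost or gained reads. The table held 24421 symbols, 4596 of them with no count. GENCODE models of GRCm38 held 23376 symbols directly and 677 under an older name.

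Counts were scaled with TMM, filtered with filterByExpr and tested in edgeR 4.0.16 (R 4.3.3), with the group as the only term. The study used DESeq2 with the same thresholds. DESeq2 1.42.0, limma-voom (limma 3.58.1), other scalings, filters and thresholds, the replicate number as a block, a lowess correction for exon length (span 0.3, length known for 99.3% of tested genes) and each library left out were tried. The code was tested on simulated data. Within a group, the mean chi-square per gene between libraries was 13.4 to 44.9, well above sampling noise, so none was counted as a repeat. Intervals of fold changes come from the fit, and the floor of 3 counts covers counting error only.

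The 10 genes and the lists (other intermediate filament genes, tubulins, axonal microtubule and transport genes, other neuron genes, spiral ganglion subtype genes, neurogenic transcription factors, catecholamine and sympathetic genes, axon growth genes, ubiquitin hydrolases, and markers of HCs, supporting cells, Schwann cells and glia, macrophages and mesenchyme) were chosen with earlier results of these data known. Named from each list were, among genes with an adjusted p under 0.05 and a mean of at least 1 CPM, the 2 with the highest positive and the 2 with the lowest negative log2 fold change, or the 2 most abundant where none passed. Of lists of other cell types only some of these are given. Dbh, Ddc, Slc6a2, Scg2, Myt1 and Neurog1 were named after their values were seen. Patterns were compared on log2 CPM with 0.01 CPM added. Some items withheld for evaluation are not reported here. Figures were drawn with matplotlib 3.10.9.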

Additional observations from a re-analysis of the deposited data

How the results depend on the processing

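Nefl and Nefm kept their direction and their call under every alternative run, except that Nefm was not called with a fold change over 2. Between 2 and 4 of the 9 genes tested were called. Left out one at a time, the libraries moved the number with an adjusted p under 0.05 from 4 to between 2 and 5, with 2 both without control replicate 1 and without neomycin replicate 3, and the log2 difference of Nefh to Nefl from 0.02 to between -0.28 and 0.32 (-0.22 without control replicate 3 and -0.28 without neomycin replicate 2). Signs also turned for Th (between -0.80 and 0.17, the latter without control replicate 1), Pou4f1 (between -0.42 and 0.12, the latter without neomycin replicate 3) and Gap43 (between -0.11 and 0.069, positive without control replicate 1 and, at 0.049, without neomycin replicate 1), none of which passed in any fit. The number of list genes that passed ranged, with a library left out, from 2 to 5 for Schwann cells and glia, 4 to 9 for axonal genes, 1 to 3 for neurogenic factors, 2 to 4 for other intermediate filaments, 3 to 7 for other neuron genes, 3 to 5 for supporting cells, 1 to 4 for tubulins and 0 to 2 for ubiquitin hydrolases. The gene length correction left 2 Schwann cell and glia markers (2 with the block), 4 axonal genes, 3 macrophage markers, 7 tubulins (8 with the block), and with the block 5 mesenchyme markers and 2 ubiquitin hydrolases. It moved the median log2 fold change from -0.35 to -0.55 for the 9 genes and from 0.53 to 0.32 for the macrophage markers, and leaving out control replicate 1 moved it from -0.68 to -0.27 for the neurogenic factors. Upper quartile scaling left 2 tubulins, and limma-voom and the filter at 1 CPM each left 1 neurogenic factor. The cause was not tested. None of the 37 other named genes changed direction. Precision is limited by 3 libraries a group and, for Pou4f1 and Neurod1, by counts.

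Replicate numbers were not taken to pair the samples: deviations from the group means correlated at 0.165, 0.0264 and 0.0949 between the same numbers over 15988 genes, and control replicate 2 correlated best with neomycin replicate 3 (0.0325). Control replicates 1 and 3 correlated best with their own numbers. Between unlike numbers the correlations lay between -0.129 and 0.0325. With the replicate number as a block, 3 of the 9 genes were called, as without it, with a median log2 fold change of -0.30. Over all genes the block moved the count with an adjusted p under 0.05 from 4629 to 6014, and the calls from 1413 to 1465. It gave 2 ubiquitin hydrolases in place of 1, and Sncb missed the threshold (adjusted p = 0.0559, edgeR). For the ratios, the exact sign-flip test within numbers gave p = 0.25 for Nefm and Prph to Nefl, the smallest p it allows, and 1.0 for Nefh.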
